A study of Mus musculus with 8 samples.

Results

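The regions described here are the 387 peaks with the strongest NF-YA signal in control muscle stem cells (MuSCs), out of 7196 peaks measured by CUT&RUN, a method in which a nuclease tethered to an antibody cuts out the DNA next to the bound protein. They were chosen by the control values themselves, as the peaks whose mean over both control libraries was at least 200. The value of a peak is its number of reads after the authors' normalisation between libraries. Because the control values selected these peaks, their height is a description and carries no test. Their sequence and their position in the genome did not enter the choice, and neither did the values of the Taf4asKO libraries.

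The series compares control MuSCs with MuSCs of Taf4asKO mice (Pax7CreERT/Taf4a flox/flox), in which tamoxifen-induced Cre under the promoter of the MuSC gene Pax7 removes exons 11 and 12 of Taf4a, the gene of a subunit of the general transcription factor TFIID. The labels call the control libraries wild type (WT). The paper lists both wild-type C57BL/6 mice and Taf4a flox/flox littermates as its controls, and the labels do not say more. All libraries came from C57BL/6 mice and from MuSCs that had been cultured and were activated and proliferating. Each genotype has 2 NF-YA libraries and 2 libraries with an unspecific IgG, and the IgG libraries were not analysed here. Reads in peaks, recovered from the step between the values, came to 351696 and 111265 in the control libraries and to 735404 and 505241 in the Taf4asKO libraries, so that the second control library was the shallowest. Each of the 387 peaks still held at least 46 reads in every library. The labels do not say whether replicates came from separate animals or cultures, so the p-values given below measure the spread between these libraries, which may be technical. NF-YA peaks are no measure of expression. Of 10 marker genes of MuSCs and muscle, Cdh15, Myod1 and Sdc4 carried a peak, none of them above a control mean of 51.5, and of 9 markers of endothelium, leukocytes and fibro-adipogenic cells 0 carried a peak.

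NF-Y is a trimer of NF-YA, NF-YB and NF-YC. NF-YB and NF-YC resemble histones and hold the DNA, and NF-YA adds the contact with the bases that reads the pentamer CCAAT, in either orientation. CCAAT boxes lie a short distance upstream of the start of many genes, above all in promoters without a TATA box, and NF-Y is best known for its role at genes of the cell cycle, of lipid synthesis and of the endoplasmic reticulum (ER) stress response. In the stress response, NF-Y binds one end of a composite element and the factor ATF6 the other.

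The sequences of 8 strong promoter peaks are shown first, because most of these peaks held several CCAAT boxes close together. Each line gives the stretch of up to 200 bases between the first and last box of the densest cluster in the peak with 12 bases on either side, read from GRCm38 (mm10) on the strand of the nearest coding gene, and 5′ to 3′. Capitals mark CCAAT or its reverse complement ATTGG.
Sp1 (chr15:102405630-102405839, plus strand): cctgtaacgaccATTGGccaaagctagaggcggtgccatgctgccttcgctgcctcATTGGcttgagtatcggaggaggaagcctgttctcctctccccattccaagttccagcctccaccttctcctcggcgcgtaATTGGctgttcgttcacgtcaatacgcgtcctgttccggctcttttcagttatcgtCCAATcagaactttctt
Tomm40 (chr7:19715461-19715661, minus strand): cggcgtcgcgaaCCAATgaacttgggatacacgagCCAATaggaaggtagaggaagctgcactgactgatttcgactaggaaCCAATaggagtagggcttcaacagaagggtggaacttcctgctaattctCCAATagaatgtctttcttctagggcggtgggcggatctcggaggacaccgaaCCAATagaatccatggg
Fam72a (chr1:131527615-131527818, plus strand): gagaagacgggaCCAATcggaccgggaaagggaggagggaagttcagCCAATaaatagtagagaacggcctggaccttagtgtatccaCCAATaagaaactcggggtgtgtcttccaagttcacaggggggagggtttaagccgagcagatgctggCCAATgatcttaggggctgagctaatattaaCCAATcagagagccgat
Prr11 (chr11:87108938-87109149, minus strand): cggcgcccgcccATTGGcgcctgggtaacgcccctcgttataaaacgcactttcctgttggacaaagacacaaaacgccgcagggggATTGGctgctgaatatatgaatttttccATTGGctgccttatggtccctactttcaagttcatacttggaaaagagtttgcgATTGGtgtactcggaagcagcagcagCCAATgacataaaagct
Cnot3 (chr7:3644916-3645139, plus strand): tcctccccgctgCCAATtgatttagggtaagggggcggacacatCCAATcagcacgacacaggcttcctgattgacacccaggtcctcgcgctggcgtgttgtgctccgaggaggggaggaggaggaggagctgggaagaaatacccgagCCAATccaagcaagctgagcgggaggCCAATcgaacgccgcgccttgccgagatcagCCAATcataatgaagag
Eif2ak3 (chr6:70844171-70844391, plus strand): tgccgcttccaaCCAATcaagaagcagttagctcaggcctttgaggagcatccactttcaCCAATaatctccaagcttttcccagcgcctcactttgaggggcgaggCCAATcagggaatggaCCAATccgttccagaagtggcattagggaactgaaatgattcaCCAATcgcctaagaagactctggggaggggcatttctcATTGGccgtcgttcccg
Arntl (chr7:113207161-113207342, plus strand): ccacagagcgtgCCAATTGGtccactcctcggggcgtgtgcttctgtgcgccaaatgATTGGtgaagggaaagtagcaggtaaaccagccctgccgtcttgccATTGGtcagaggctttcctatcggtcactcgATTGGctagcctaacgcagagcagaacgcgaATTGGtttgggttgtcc
Arid4a (chr12:71015761-71015981, plus strand): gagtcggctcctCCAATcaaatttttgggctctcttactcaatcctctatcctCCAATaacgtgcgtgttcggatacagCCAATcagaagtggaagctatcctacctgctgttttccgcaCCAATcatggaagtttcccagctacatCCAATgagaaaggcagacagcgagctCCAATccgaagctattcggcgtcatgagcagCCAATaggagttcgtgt
The stretches at Tomm40, Fam72a and Cnot3 hold 5 boxes each, all in the same orientation as the gene. At Prr11 4 of 5 boxes are inverted. Arid4a, whose product is a partner of the retinoblastoma protein, has 7 boxes in the same orientation. In Arntl, the clock gene that encodes BMAL1, the first pair of boxes overlaps as a palindrome. All 8 stretches lie upstream of the annotated start of their gene. Their position relative to the start ran from -513 to -304 at Sp1, from -223 to -23 at Tomm40, from -441 to -230 at Prr11 and from -229 to -9 at Arid4a.

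Signal within the set was uneven. The control mean ran from 200 to 2108.5 with a median of 301, and 61 peaks reached 500 while 6 reached 1000. These peaks are 5.38% of all peaks and held 37.8% and 39.4% of the summed value in the control libraries, and 33.3% and 34.7% in the Taf4asKO libraries. Both control values were at least 200 in 347 peaks, and in the other 40 one value lay below. At the edge of the set, the peaks just inside included those at the histone gene Hist1h2bk (named H2bc12 in the table), with 211 and 189 in control, and at the ribosomal protein gene Rpl13a and the sterol gene Idi1, both with a mean of 201. Just outside were Mcm10, a replication gene, with a mean of 199.5, and Cep57 and Sesn3, each with 198.5. The border therefore runs through a continuum of values.

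**Figure D1:**
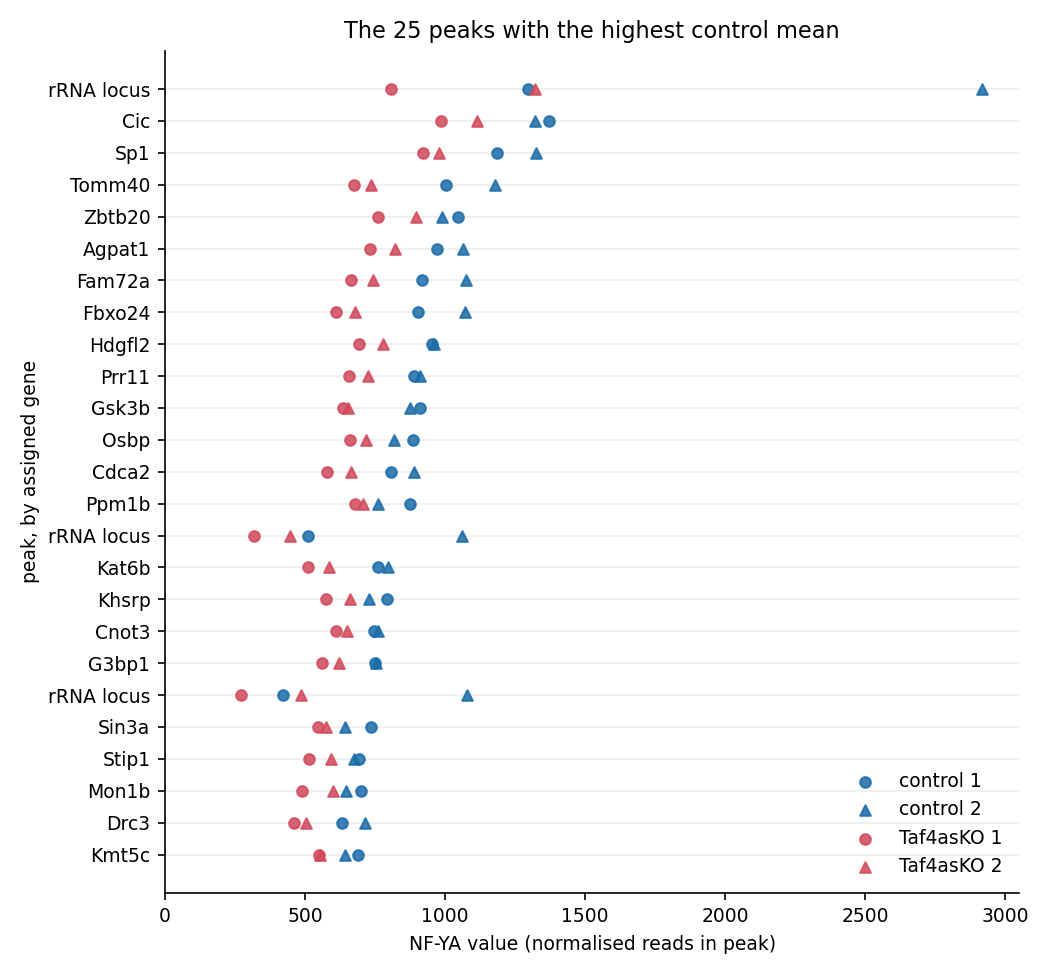
NF-YA value (normalised reads in the peak, horizontal axis from 0) of the 25 peaks with the highest control mean, named by gene, in each library (blue, control; red, Taf4asKO; circles, replicate 1; triangles, replicate 2). Control values lie close together for most genes, whereas at the peaks of the rRNA locus the control replicates lie far apart, as in the highest row with 1298 and 2919.

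A group of 11 peaks stood apart. They are included in the counts over 387 peaks, and without them the remaining 376 had a median width of 478 bases, 88.3% at gene starts, and in the central 200 bases CCAAT in 92.6% and 3 or more boxes in 42.8%. The first 9 lie side by side on chromosome 17 between 39843033 and 39848779, in a copy of the ribosomal RNA genes (7 assigned to the rRNA gene ENSMUSG00000106106 and 2 to a pseudogene). The highest of them was the strongest peak of the whole table, where the control libraries had 1298 and 2919 and the Taf4asKO libraries 806 and 1320. The control replicates of these 9 peaks differed by 2.02-fold to 3.14-fold, against a median of 1.08-fold among the 376 remaining peaks. Ribosomal sequence occurs in many copies, so a peak there cannot be tied to a single locus. The authors' processing had removed ribosomal reads. CCAAT was found in 0 of these 9 peaks. The remaining 2 lie in the last exon of Taf4 (the symbol of Taf4a), the gene that was inactivated, and are described with the genotypes below.

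Cic, the gene of a transcriptional repressor of the growth factor response, had the strongest peak outside the rRNA locus. Its values were 1372 and 1321 in the control libraries and 985 and 1114 in the Taf4asKO libraries, over 1164 bases on chromosome 7 (25267263-25268427). Next came Sp1, which encodes the factor that binds GC boxes, with 1187 and 1324 against 922 and 978. At Tomm40, the gene of the channel of the mitochondrial import complex, the values were 1003 and 1177 against 676 and 736. In these 3 peaks every control value lay above every Taf4asKO value, which was the usual state in the set. It held for 301 of the 387 peaks (77.8%) and for 28.6% of the 4746 peaks whose mean reached 10, and nothing is read from this difference, since the control values chose the set. Zbtb20, a repressor with zinc fingers, had 1046 and 988 in control, and Agpat1, an enzyme of phospholipid synthesis that shares its promoter with Rnf5, had 971 and 1063. For Fam72a the control values were 917 and 1076, for the F-box gene Fbxo24 903 and 1070, and for Hdgfl2, a chromatin reader, 955 and 959. The list of the highest 15 was completed by Prr11, Gsk3b, Osbp, Cdca2 and Ppm1b, with control means from 899 down to 818, and by a further rRNA peak. Gsk3b encodes a kinase of the WNT and insulin pathways, Osbp an oxysterol carrier, Ppm1b a protein phosphatase and Cdca2 a regulator of mitotic exit.

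The genes with the strongest peaks were spread over many functions. Of the 387 peaks, 373 were assigned to 363 genes by the table, of which Cit, Sin3a and Kdm6b had 2 peaks each, and 14 lay too far from a start to be assigned. Coding genes took 357 of them. Lists of 23 gene groups held 125 of the peaks, and the share of a group's peaks that belonged to the strongest can be set beside 7.91% among all 4716 assigned peaks and 11.8% among the 2857 assigned peaks at gene starts. These shares are counts beside a background, without a test.

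Genes of ER protein folding and the ER stress response had 10 of 44 peaks among the strongest (22.7%, and 25% of those at gene starts). P4hb and Pdia4 encode disulphide isomerases of the ER, and their values in control were 473 and 447, and 435 and 391. Manf, a secreted ER stress protein, had 389 and 408, and Sel1l, an adaptor of ER-associated degradation, had 321 and 342. The main chaperone of the ER, Hspa5 (BiP), had 272 and 294 in control and 215 and 254 in Taf4asKO. Calr and Canx, the lectin chaperones calreticulin and calnexin, stood lower, at 257 and 264 and at 215 and 251. Dnajb11, Stt3a and Sdf2l1 complete the group. Eif2ak3, which encodes the ER stress kinase PERK and was counted with the translation genes, stood above all of them with 584 and 597 against 440 and 490.

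The composite ER stress element, CCAAT followed by 9 bases and CCACG, was searched on both strands over whole peaks. It was found in 4 of the 387 peaks (1.03%) and in 18 of all 7196 (0.25%), and among all RefSeq promoters without a peak 0.0807% held it. Of the 4 peaks, 3 belong to the ER chaperones Hspa5, Calr and Canx and the fourth, which held it at 2 places, lies between the divergent starts of Ttc41 and Hsp90b1, 302 bases apart. The table assigned this peak to Ttc41, whereas Hsp90b1 encodes the ER chaperone GRP94. The 29 bases around each match are shown on the strand of the match, with CCAAT and CCACG in capitals, since this is the arrangement that NF-Y shares with ATF6.
Hspa5 (chr2:34772020-34772048, plus strand): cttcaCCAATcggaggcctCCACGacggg
Calr (chr8:84847070-84847098, plus strand): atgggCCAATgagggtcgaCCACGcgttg
Canx (chr11:50325795-50325823, minus strand): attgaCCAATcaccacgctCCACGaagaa
Ttc41 (chr10:86705528-86705556, plus strand): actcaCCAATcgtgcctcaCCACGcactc
Ttc41 (chr10:86705633-86705661, minus strand): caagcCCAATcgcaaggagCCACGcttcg
The centre of the element lay between positions -270 and 63 relative to the annotated coding start.

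Vesicle traffic contributed 15 of 71 peaks (21.1%, and 22.6% at gene starts), with small GTPases and their partners in front. At Arf2 the control values of 491 and 541 stood against 392 and 453. Rab40c had 504 and 444 in control, Rab11b, a GTPase of recycling endosomes, 450 and 486, and Rab5b, of early endosomes, 362 and 391. Coat and tethering genes (Copz1, Ap3m2, Ap3d1, Trappc9, Trappc6a), SNARE genes (Stx5, Vamp1) and Napa followed. Autophagy and lysosome genes had 0 of 22 peaks among the strongest. Beside the 7.91% of all assigned peaks, a list this short allows no reading of a difference.

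Chromatin modifiers had 15 of 86 peaks in the set (17.4%, and 21.4% at gene starts). Sin3a, the scaffold of a histone deacetylase complex, was assigned a peak 4031 bases from its start with control values of 736 and 643 and Taf4asKO values of 546 and 574, which lay 58 bases from the start of the gene 2700012I20Rik. A weaker one, with 342 and 313 in control, lay in a Sin3a intron 1585 bases from the nearest transcript start. Kmt5c, a methyltransferase for lysine 20 of histone H4, had 690 and 643 in control and 550 and 552 in Taf4asKO. At the demethylase gene Kdm4a the values were 573 and 567 against 384 and 445. At Sin3a, Kmt5c and Kdm4a the genotypes did not overlap, as at most peaks of the set, and none of these peaks passed the test described below. Cbx5, the gene of heterochromatin protein HP1 alpha, had 513 and 447 in control and 433 and 472 in Taf4asKO, so that the genotypes overlapped. Prmt1, Mbd3, Arid4a, Prmt5, Hmgb2, Kdm4b, Setd5, Kdm3a and Kdm6b (2 peaks) make up the rest. Kat6b, which the table did not assign, had 762 and 796 in control at an internal transcript start.

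Transcription factors of growth and stress had 10 of 64 peaks (15.6%, and 19.6% at gene starts). After Cic and Sp1 came Mxd4, an antagonist of MYC, with 608 and 613 in control, and Sp2 with 558 in both control libraries. Nfya itself had a peak among the strongest, where control libraries had 183 and 251 and Taf4asKO libraries 154 and 195. An internal peak in an intron of Nfyc, the gene of the partner subunit, had 238 and 245 in control, and both genes were picked out after the values were seen. Zinc finger genes of the Zfp, Zbtb, Zkscan and Zscan series, at 8 of 110 (7.27%, and 6.59% at gene starts), had a share near that of all assigned peaks and below that of those at gene starts, with Zbtb20, Zbtb5 and Zfp869 leading.

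Cell cycle and DNA genes were present with smaller shares. At gene starts these were 14.3% for cell cycle, 13.3% for replication, 13.3% for repair and 15.1% for histone genes. They lay not far above the 11.8% of all assigned peaks at starts. The cell cycle list had 9 of 78 peaks (11.5%), headed by the kinase inhibitor gene Cdkn2d with 337 and 401 in control, the phosphatase gene Cdc25c with 393 and 333, the kinesin gene Kif24 with 312 and 336, and E2f3 with 331 and 300. DNA replication genes had 4 of 34 (Asf1b, Gins2, Rpa2, Pold4) and DNA repair genes 4 of 33 (among them Chek2, Parp3 and H2ax). Histone genes had 9 of 65 peaks (13.8%), of which the replacement variant gene ENSMUSG00000041126 (H2az2) was highest with 353 and 372. A further list of mitotic genes, written after the members had been seen, held 13 of 17 peaks in the set (among them Fam72a, Prr11, Cdca2, Cdca3, Mis12, Kpnb1, Stil and 2 peaks of Cit), and its share says nothing beyond that choice. The same holds for clock genes, where Per1 had 655 and 626 in control and 448 and 502 in Taf4asKO, Arntl 406 and 375 against 359 and 370, and Dbp 324 and 352 against 252 and 283.

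The remaining groups had shares from 0% to 13.2%. Chaperones and folding catalysts had 5 of 38 peaks, led by the HSP90 cochaperone gene Stip1 with 691 and 675 in control and including Hspa5 and Dnajb11, which are also on the ER list, and mitochondrial genes had 8 of 69, led by Tomm40 and the coenzyme A carrier gene Slc25a42 (711 and 584). Proteasome and ubiquitin genes had 10 of 88, splicing and RNA-binding genes 8 of 67, with Hnrnpl (581 and 558) and Rbm15 (533 and 515) in front, and sterol and fatty acid genes 4 of 44, namely Mvk, Hmgcs1, Hsd17b7 and Idi1. Transcription machinery had 3 of 41 (Cnot3, Med19, Med29), solute carriers 3 of 62, and genes of matrix, adhesion and cytoskeleton 3 of 40 (Lgals1, Tubb4b, Serpinh1). Ribosomal protein genes had 1 of 14 for the cytosolic and 1 of 14 for the mitochondrial ribosome, translation factors and tRNA synthetases 1 of 29, and noncoding RNA hosts 0 of 3. Myogenic genes had 15 peaks and 0 among the strongest. The fast muscle light chain gene Mylpf, which was not on that list and was noticed in the values, had 640 and 620 in control at a promoter that it shares with Tbc1d10b.

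Strong peaks were wide. Their width ran from 115 to 1164 bases with a median of 477 (quartiles 406 and 586), against 330 for control means of 100 to 200, 266 for 50 to 100, 207 for 20 to 50 and 116 below 20. Of the 387 peaks 77.3% were wider than 400 bases, compared with 3.91% of all others. The widest were those at Cic (1164), Cbx5 (1159) and Ppm1b (1038). The 3 narrowest, with 115, 140 and 158 bases, all belonged to the rRNA locus, and without that locus and Taf4 the narrowest was at Prmt5 with 296. The control value per 100 bases had a median of 67.4 here, against 40.5 for control means of 100 to 200 and 9.62 in all other peaks, an order that follows largely from the choice by control value. Width and value come from the same reads and are not independent measures.

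**Figure D2:**
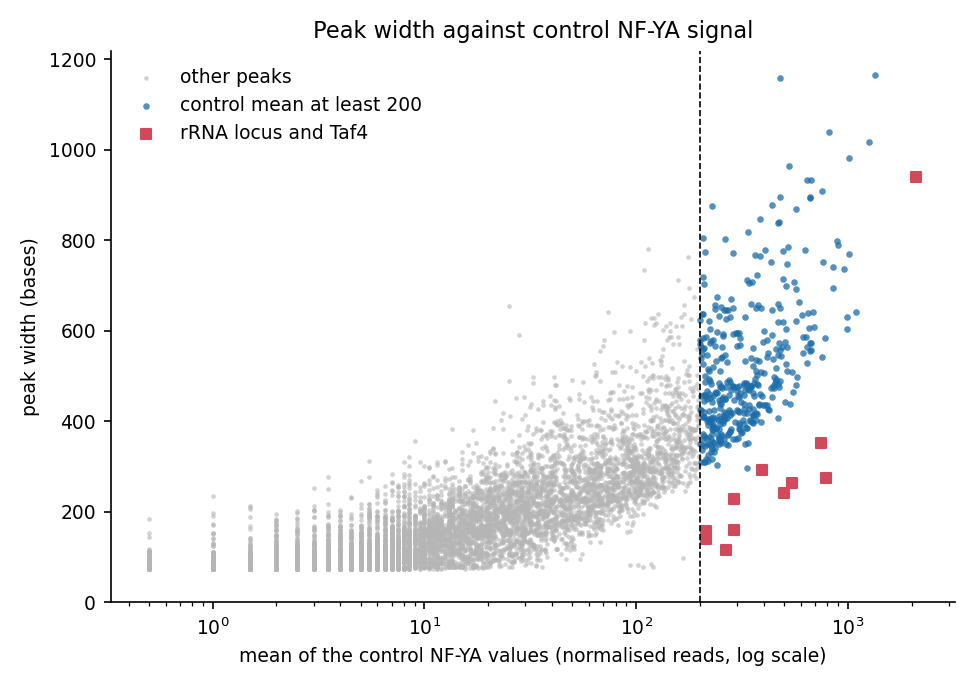
Peak width in bases against the mean of the control NF-YA values on a log scale, for all peaks with a control mean above 0 (grey), the peaks at or above 200 (blue, right of the dashed line) and the peaks of the rRNA locus and Taf4 (red squares). The blue points are at least 296 bases wide, and the red squares, apart from the highest at 939, are 115 to 353 bases wide.

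Most strong peaks sat at gene starts. The centre was within 1000 bases of an annotated gene start in 337 of 387 (87.1%, 95% Wilson interval 83.4 to 90.1), against 80% for control means of 100 to 200, 67.9% for 50 to 100, 45.9% for 20 to 50, 20.1% below 20 and 39.8% of all peaks. Counting any transcript start, the share was 93%. Of the remaining peaks, 20 lay in introns, 17 between genes, 7 in untranslated regions and 6 in other exons. Outside the rRNA locus, the 3 with the highest control mean among these were those in introns of Kat6b and Sp2 and one assigned to Zfp869 (617 and 691 in control). This last peak lay 6407 bases from the nearest transcript start in GENCODE M21 but 148 bases from the Zfp869 start in the deposited table. They were followed by Ing1 (518 and 512) and by a peak 91434 bases from any transcript start, whose nearest gene is Mir148a (510 and 476).

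The strongest peaks also lay further upstream. In the 323 peaks within 1000 bases of a coding start, the centre had a median position of -135 bases (quartiles -207 and -49), and 82.4% were upstream of the start. The median was -88.5 for control means of 100 to 200, -58 for 50 to 100, -60 for 20 to 50 and -50.5 below 20. Divergent coding gene pairs, with both starts within 1000 bases of the centre, held 54 of the peaks at starts (16%, interval 12.5 to 20.3), compared with 11.8%, 12.5%, 6.86% and 4.6% in the lower classes in the same order. The starts of these pairs were 28 to 1132 bases apart with a median of 264. Among the highest were Rnf5 and Agpat1, Srgap2 and Fam72a, Fbxo24 and Lrch4, Prr11 and Ska2, and Cdca2 and Kctd9. The position of a peak does not tell which gene of a pair it belongs to.

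**Figure D3:**
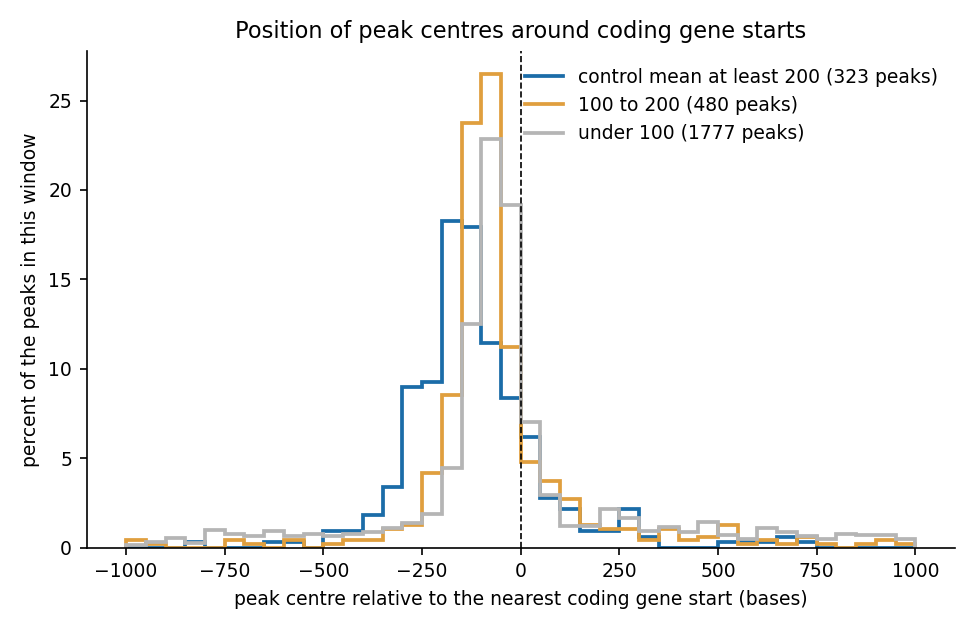
Position of the peak centre relative to the nearest coding gene start, in bases (negative, upstream), as the percent of the peaks of each class that lie within 1000 bases of such a start, in bins of 50 bases. The strongest peaks (blue) reach further upstream, with a median of -135, than those with control means of 100 to 200 (orange, median -88.5) or below 100 (grey).

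CCAAT was found in almost every strong peak, and usually several times. In the central 200 bases, 349 of 387 held it (90.2%, interval 86.8 to 92.8), against 21.7% of windows of the same length beside these peaks and 78.4% of all peaks. This share was not higher than in the next classes, which had 94.1% at control means of 100 to 200 and 92.8% at 50 to 100. The difference lay in number, since 3 or more boxes were found in 41.6% (36.8 to 46.6) of the strongest peaks, 28.1% (24.7 to 31.8) of the next class, 15.9%, 7.35% and 5.63% of the classes below, and 11.1% of all peaks. The window runs past the edges of peaks narrower than 200 bases, and the median width was 170 bases over all peaks. The shares of all peaks and of the lowest classes therefore include some sequence beside the peaks. The largest numbers in the centre were 6 at Arntl and Arid4a, and 5 at 6 peaks, among them Eif2ak3, Rap2a, Zfyve21 and Cenpx.

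Over the whole width, CCAAT was present in all 376 peaks outside the rRNA locus and Taf4, in 1 of the 2 Taf4 peaks and in 0 of the 9 rRNA peaks. The median number was 4, and 142 peaks (36.7%) had 5 or more, compared with 0.852% of all other peaks. Cic and Ppm1b had 11 each. A wider peak has more room for a pentamer, so the density was computed as well. It was 8.12 boxes per 1000 bases in the strongest peaks, 6.98, 6.78, 6.16 and 6.57 in the lower classes, and 1.3 in windows of the same width beside the strongest peaks. Several peaks had no box in the centre but many outside it, such as Cic (11 in all), Hdgfl2 (6), Ensa (6), Hnrnpul1 (7) and Tnrc6b (8). In these the centre of the merged peak and the boxes did not coincide.

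The spacing of neighbouring boxes was similar in strong and other peaks. Among 519 pairs of adjacent boxes in the centres of the strongest peaks, the median distance between their starts was 44 bases, the commonest was 32 bases with 27 pairs, and 66.7% of pairs had the same orientation. Other peaks had a median of 41 bases and a commonest distance of 31 over 3141 pairs, with 62.8% in the same orientation.

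Promoters were examined with the RefSeq set, which gives 250 bases before and 50 after each gene start on GRCm38. A promoter was matched to 313 of the strongest peaks, and 93% of these held CCAAT (89.6 to 95.3) and 82.7% held at least 2 boxes. Promoters with a lower peak held it in 80.8% and at least 2 in 48.2%, promoters without a peak in 33.1% and 7.72%, and all 32851 promoters in 37.4% and 11.7%. The highest frequency fell between -70 and -50 bases from the start in the promoters of the strongest peaks, with 32.9 boxes per 100 promoters, and in those of lower peaks, with 23.3. Further upstream the sets parted, with 14.7 boxes per 100 promoters between -250 and -230 in the former. Of the boxes 48.8% had the orientation of the gene.

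**Figure D4:**
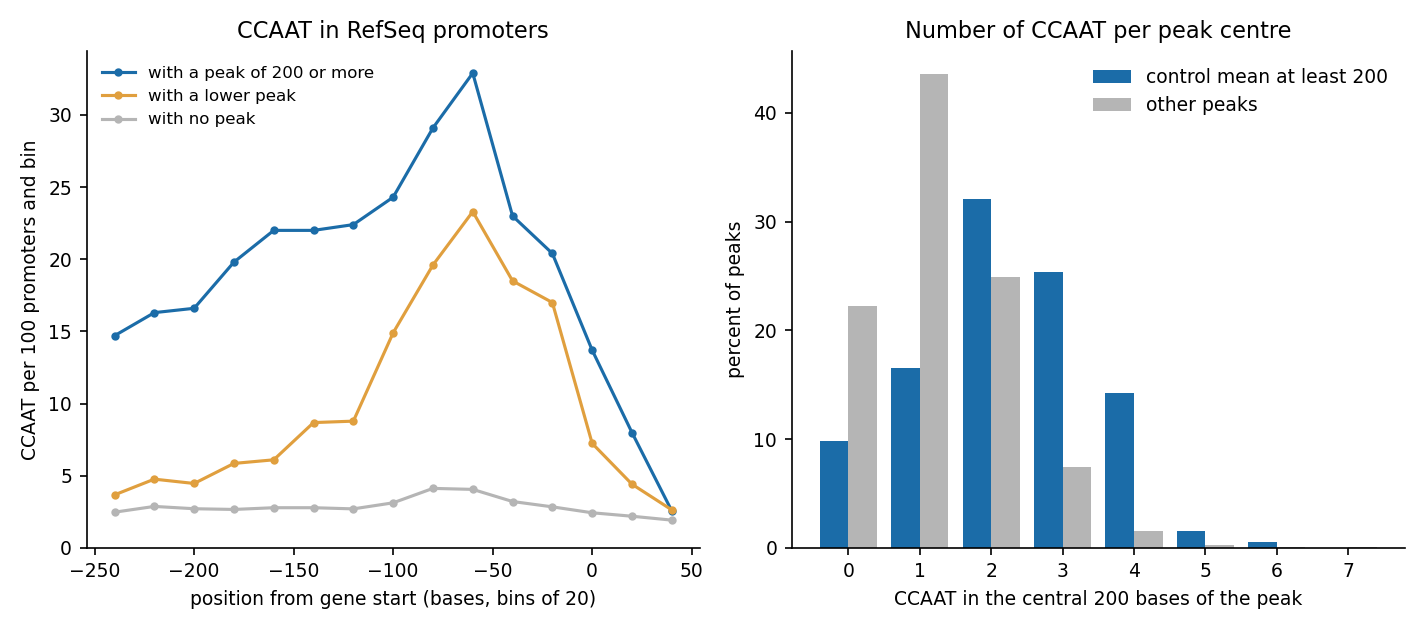
Left, CCAAT boxes in either orientation per 100 RefSeq promoters in bins of 20 bases along the position from the gene start, for promoters with a peak of the strongest set (blue), with a lower peak (orange) and with no peak (grey). Right, percent of the strongest (blue) and of all other peaks (grey) by the number of boxes in the central 200 bases. The blue line peaks at 32.9 between -70 and -50 and stays above the orange line upstream, and the blue bars are highest at 2 boxes whereas the grey bars are highest at 1.

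Motifs of other factors were counted in the central 200 bases on both strands. The longer form CCAATCA was found in 45% of the strongest and 31.6% of all peaks, and in 2.26% of the flanking windows of all peaks. GGGCGG, the core that SP1 recognises, was found in 54.5% of the strongest and 27.8% of all peaks. TGACTCA, the site of the AP-1 factors JUN and FOS, was found in 2.07% of the strongest and 20.1% of all peaks, and CAGCTG, which MYOD recognises among other factors, in 7.75% and 20.3%. The flanking windows of all peaks held these in 6.46%, 3.52% and 9.89%. CCGGAAG of the ETS factors was found in 4.91% of the strongest and 4.7% of all peaks, TGACGTCA of the CREB factors in 0.775% and 1.18%, and CACGTG of USF and MYC in 7.24% and 5.28%. GCATGCGC of NRF1 was found in 1.81% and 0.903%, TATAAA of the TATA-binding protein in 3.36% and 4.78%, ACTACAA, a core of ZNF143, in 1.29% and 1.78%, and TCTCGCG, an element of CpG island promoters, in 3.62% and 1.45%. Most peaks of the set are promoters and most other peaks are not, and the GC box share was 57.9% among its peaks at starts and 53.4% among all other peaks at starts. In the same comparison TGACTCA was found in 1.19% and 4.99%, and CAGCTG in 7.42% and 11.6%, so that these contrasts were smaller at starts than over all peaks. CCGGAAG was found in 5.64% and 9.39%, TGACGTCA in 0.593% and 2.42%, GCATGCGC in 1.48% and 2.02%, ACTACAA in 1.48% and 2.89% and TATAAA in 2.67% and 4.2%, all lower in the strongest peaks at starts, whereas CACGTG (8.31% and 7.53%) and TCTCGCG (3.56% and 3.05%) were close. A match is a string of letters and no proof of binding, and CCAATCA contains CCAAT.

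The same peaks were strong in the Taf4asKO libraries, which had no part in the choice. The Taf4asKO mean ran from 28.5 to 1063 with a median of 253, and 289 of the 387 peaks were at 200 or above. Only 7 peaks outside the set reached 200 in Taf4asKO. Ranked by the Taf4asKO mean, 356 (92%) of the control set were among the highest 387. The 3 that ranked below 1000 were both Taf4 peaks and the intergenic peak on chromosome 17 described below.

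Values were mostly somewhat lower in Taf4asKO, and the number of differences that passed the test depended on the scaling and on the filter. The median log2 fold change was -0.28, against -0.04 over all tested peaks, and it was negative in 372 of 387. A set chosen for high control values tends to lie lower in any other libraries, so this direction is not an independent result. With limma on log2(value + 1) and Benjamini-Hochberg adjustment over 4746 peaks, 10 of the 387 were called at an adjusted p under 0.05, and all 10 were lower in Taf4asKO. Over all tested peaks the share called was 0.948% in either direction and 0.611% lower in Taf4asKO, and since the rule used the control values of this contrast, nothing is read from the comparison. The count was 48 with libraries scaled to equal medians, 14 with equal totals and 0 without the minimum mean of 10 (155 with an unadjusted p under 0.05 by limma), and equal totals moved the median from -0.28 to -0.14. Leaving out any single library left 0 calls with limma, among all peaks and among these, and 26 to 163 of the 387 then had an unadjusted p under 0.05.

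Of the 10 called peaks, 3 were at gene starts. Lgals1, the gene of the lectin galectin-1, had 454 and 479 in control and 260 and 279 in Taf4asKO (log2 fold change -0.79, SE 0.12, limma adjusted p 0.0214). Its CCAAT pair lies at chr15:78926435-78926473, upstream of the start. Tomm40 differed by -0.62 on the log2 scale (SE 0.11, adjusted p 0.0404 by limma). Fbxo24, with 610 and 679 in Taf4asKO, differed by -0.61 (SE 0.12, adjusted p 0.0473 by limma). The genotypes did not overlap at these, as at most peaks of the set.
Lgals1 (chr15:78926435-78926473, plus strand): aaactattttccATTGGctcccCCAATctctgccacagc

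A further 5 called peaks lay between genes, more than 1000 bases from any transcript start. The largest difference of these was at chr17:31929880-31930362, which had 237 and 215 in control and 88 and 85 in Taf4asKO (log2 fold change -1.37, SE 0.16, limma adjusted p 0.00395). At chr6:91619596-91620471 the values were 247 and 209 against 100 and 101 (-1.17, adjusted p 0.01 by limma). The others were chr19:44248178-44248805 with 254 and 277 against 144 and 131, chr13:45469747-45470379 with 259 and 235 against 145 and 125, and chr7:46337244-46337816 with 478 and 470 against 316 and 308. In each, both Taf4asKO values lay well below both control values. The nearest transcript starts were 1922 to 20802 bases away. The CCAAT cluster of the first of these peaks, shown because its difference between genotypes was the largest outside Taf4, holds 3 boxes.
Intergenic peak on chromosome 17 (chr17:31930052-31930211, plus strand): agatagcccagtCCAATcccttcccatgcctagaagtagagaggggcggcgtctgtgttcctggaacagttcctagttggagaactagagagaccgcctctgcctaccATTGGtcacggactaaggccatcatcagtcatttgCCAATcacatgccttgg

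Altogether 25 of the peaks outside the rRNA locus and Taf4 were more than 1000 bases from any transcript start, and 24 of them held CCAAT in the centre. Their log2 ratio of the Taf4asKO to the control mean had a median of -0.34 (quartiles -0.60 and -0.21), and 8 lay below -0.5. The 351 peaks near a transcript start had a median of -0.28 (quartiles -0.36 and -0.18), and 18 lay below -0.5. The distal peaks were lower in control, with a median of 232 against 306, and wider, with a median of 578 against 476 bases. Their ratio of observed to expected CpG was 0.36 in the median, against 0.75. This difference between distal and proximal peaks was not tested, because both groups were chosen on the control values.

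**Figure D5:**
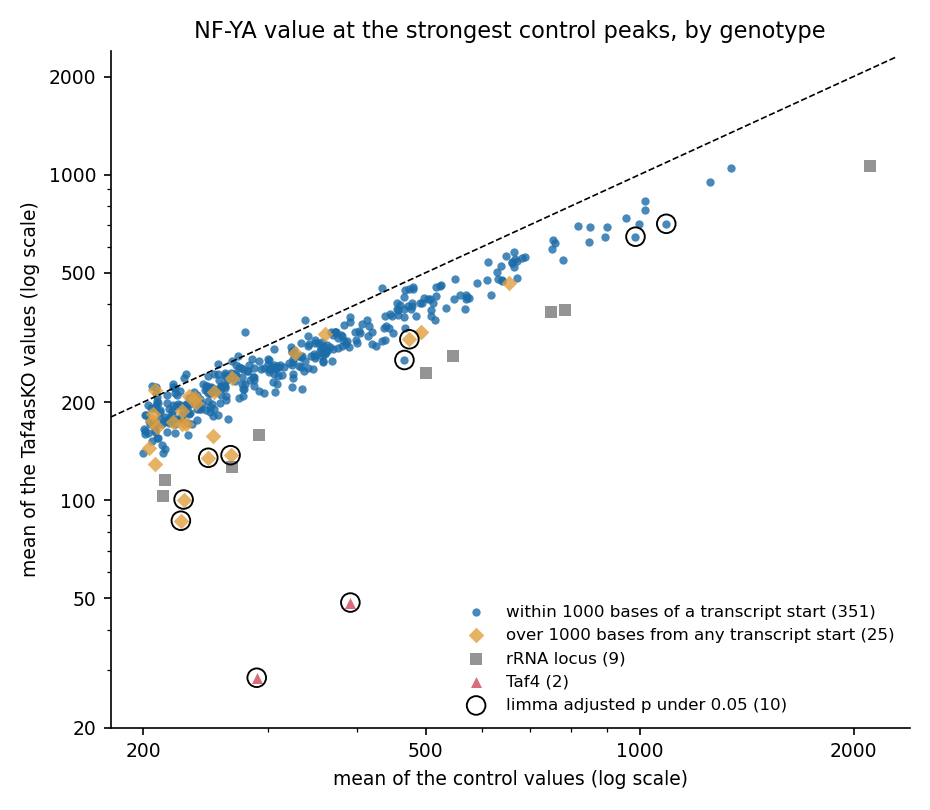
Mean of the Taf4asKO values against the mean of the control values at the 387 strongest control peaks, both on log scales, by position, with the line of equal values dashed and the 10 peaks with a limma adjusted p under 0.05 circled. Most points lie in a band just below the line, and the peaks of Taf4 (28.5 and 48.5 in Taf4asKO), the rRNA locus and some distal peaks lie further down.

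At the other end, the ratio of the Taf4asKO to the control mean was highest at the demethylase gene Kdm4b (347 and 209 in control, 307 and 351 in Taf4asKO, log2 ratio 0.24), at Maco1 (213 and 199 against 204 and 245, 0.12), and at Hspa2 and Ppm1k (both 0.09). At these the genotypes overlapped in whole or in part, and the control replicates of Kdm4b were the most different outside the rRNA locus, at 1.66-fold. The 9 rRNA peaks had log2 ratios of -1.07 to -0.87, with limma adjusted p of 0.137 to 0.321.

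Both Taf4 peaks were called and had the largest differences of the set. At chr2:179913277-179913569 the values were 366 and 417 in control and 35 and 62 in Taf4asKO (log2 fold change -3.04, SE 0.24, limma adjusted p 0.000412). At chr2:179912432-179912660 they were 258 and 320 against 20 and 37 (-3.35, SE 0.27, limma adjusted p 0.000412). Both lie within exon 15, the last of 15 exons, and outside the deleted exons 11 and 12. The table holds 5 further, weaker peaks in Taf4, with control means of 34 to 120. Each of the 7 overlaps an exon, namely exons 1, 2, 3, 7, 8 and, for 2 peaks, 15, and each was 6.97-fold to 11.33-fold lower in Taf4asKO. In the central 200 bases only the first of the exon 15 peaks by position held CCAAT. What gives rise to these peaks was not tested.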

How the data were processed

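Per the labels, 2 NF-YA libraries of MuSCs were available for each genotype. The authors trimmed the reads (Trimmomatic 0.39), aligned them to mm10 (STAR 2.7.11a), removed duplicates (Picard 3.1.1), called peaks against IgG and merged the peaks of all libraries. These versions are from the submitters' processing notes, and the paper lists other versions of STAR and Picard. The deposited score of each of 7196 peaks is its number of reads in a library, normalised by the authors with DESeq2 and rounded to whole numbers. Such values are not counts, so no count model was run. A peak was assigned by the authors to the nearest gene start within 10000 bases.

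Members were the peaks with a control mean of at least 200. The members, the gene lists and the motifs were chosen with earlier results of these data known. The text names the 15 highest members, those nearest the threshold, the widest and narrowest, the highest without a gene start or without CCAAT, those with most CCAAT, up to 4 per list, the called peaks, and the extremes in ratio and replicate difference. Some genes that this rule would name are not reported here.

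Positions were taken from GENCODE M21, in which 3972 of 3978 assigned gene IDs were found, and sequences from GRCm38 and RefSeq promoters. Peak coordinates are as deposited, and coordinates of sequences count from 1. CCAAT was searched on both strands of the central 200 bases and in flanking windows 1000 bases away. In peaks narrower than 200 bases the central window takes in sequence beside the peak, also for the other motifs. Shares have 95% Wilson intervals, which cover counting error only. Reads per peak were recovered from the step between values (1.045 and 3.262 in control, 0.431 and 0.681 in Taf4asKO), and CUT&RUN reads are not independent molecules.

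Genotypes were compared with limma 3.58.1 (R 4.3.3, trend) on log2(value + 1), without a block, for the 4746 peaks whose mean value reached 10, with Benjamini-Hochberg adjustment. Fold changes on this scale understate the change of low peaks. On simulated data with 200 peaks changed by 2 on the log2 scale, 182 were recovered with 0 false calls among 4747 peaks. Recovery of smaller differences, such as the -1.37 to -0.60 of the called peaks of the set outside Taf4, was not tested. Alternatives changed the threshold, windows, scaling, pseudocount, minimum, pairing and libraries. Python 3.11.15 was used.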

Additional observations from a re-analysis of the deposited data

How the results depend on the processing

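The control threshold set the size of the group, which had 592 peaks at a mean of at least 150 and 197 at 300, with median widths of 435 and 526 bases. The share at gene starts was 90.7% within 2000 bases, 91.9% at a threshold of 300 and 93% for any transcript start, the last chosen after seeing the data. The share with CCAAT was 73.4% in the central 100 bases and 97.4% over the whole peak, since a narrower window has less room. Membership varied from 377 to 390 without 1 control replicate, and the number at 200 or above in Taf4asKO from 265 to 318 without 1 Taf4asKO replicate. The count of calls by limma was the least stable result. It was 10 as reported, 48 with libraries scaled to equal medians, 14 with equal totals, 11 with a pseudocount of 5, and 0 without the minimum (155 of the 387 with an unadjusted p under 0.05). Leaving out single libraries gave 0 to 0 calls, in fits where 1 genotype has a lone sample assumed to vary like the other. Equal totals moved the median of all peaks from -0.04 to 0.10 on the log2 scale, and that of the strongest peaks from -0.28 to -0.14. Without the rRNA locus and Taf4, an alternative added after seeing the data, 8 calls remained among 376 peaks. The labels give both genotypes replicates 1 and 2. Deviations of same-numbered libraries correlated at -0.0883 over the tested peaks, 0.513 over the 387 and 0.152 over the 378 outside the rRNA locus. The labels tie the numbers to no shared animal or batch, so they were not taken to pair the samples. With a replicate block 15 of the 387 were called, 9 of them among the 10. The called peak that lost its call there was the intergenic peak on chromosome 7 (limma adjusted p 0.0588). Under the 5 alternatives that kept every library, 39 values of the 10 called peaks stayed called and 11 lost the call. The 4 fits without 1 library called no peak of the table (smallest adjusted p 0.187 to 0.739 by limma), so the loss of all 10 calls there says nothing about single peaks. Their log2 fold changes kept their direction, with -0.84 to -0.74 at Lgals1 and -3.78 to -2.92 at the lower Taf4 peak. The depth of the shallowest library, with a median of 93 reads in these peaks, limits how small a difference can be seen.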
